A study of Homo sapiens with 6 samples.

Results

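The 44 collagen genes described here are those whose symbol in the count tables is COL followed by a number, the letter A and a number, out of 47470 genes listed. They were followed in HEK293T, a line of human embryonic kidney cells with the large T antigen of SV40, in untreated cells and in cells exposed to 1 mM VPA (valproic acid, which blocks histone deacetylases) for 1 day. Both groups are the same line without any engineered change named in the labels, and RNA was sequenced from 3 libraries of each group. By the structure that their proteins form, 11 of the genes code for fibrillar collagens, 9 for network-forming collagens, 10 for FACITs (fibril-associated collagens with interrupted helices), 4 for transmembrane collagens and 10 for other types, among them the beaded filaments of type VI and the multiplexins.

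Collagens are secreted matrix proteins whose chains wind around each other into a stiff helix, either as copies of a single chain or as set combinations of different chains. Fibrillar types build the load-bearing fibrils of skin, bone and cartilage, network types the sheets of basement membranes, and FACITs decorate the surface of fibrils, whereas transmembrane collagens are anchored in the plasma membrane of epithelial, neural and other cells. New chains are hydroxylated and glycosylated in the endoplasmic reticulum, folded with dedicated chaperones, secreted, trimmed by procollagen proteinases and crosslinked by lysyl oxidases.

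The libraries held between 18622267 and 18828495 counts on genes, so depth differed little between the groups. The libraries of a group differed by more than sampling noise and each was counted as 1 replicate. The labels number the libraries but do not say whether they came from separate cultures, so the p-values measure the spread between these libraries only. Values below are counts normalised by TMM (trimmed mean of M-values) to a mean library, and fold changes, standard errors (SE) and adjusted p-values are from edgeR's quasi-likelihood test over 15298 genes. A gene was called up-regulated or down-regulated where the adjusted p was under 0.05 and the log2 fold change reached 1 in either direction, and higher or lower where it passed the adjusted p alone. In RNA from whole cultures, more cells that express a gene and more RNA per cell cannot be told apart.

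Collagen RNA was more abundant in VPA-treated cells, and the increase spanned the classes. Of the 44 genes 33 had enough counts to be tested, of which 19 were up-regulated and 0 were down-regulated. Up-regulation was called for 12.0% and down-regulation for 0.503% of all genes tested. A further 10 collagen genes were higher at the adjusted p alone, which makes 29 higher genes against a background of 32.9%, and COL11A2 was the 1 gene lower, against a background of 30.0%. COL9A2, COL6A5 and COL7A1 passed neither threshold. Every VPA-treated library lay above every untreated library for 30 genes (34.8% of all genes tested did so) and below for COL11A2 (31.0% of all genes tested). The median log2 fold change of the tested collagen genes was 1.27, and that of all genes tested was 0.0058.

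The filter on low counts had a part in these numbers. COL5A3, COL11A1, COL8A1, COL23A1, COL6A3, COL6A5, COL6A6 and COL15A1 had at least 10 counts in each VPA-treated library but not in each untreated library, so that they were tested because of their counts after VPA, and 7 of these 8 were called up-regulated. Among the 25 collagen genes with at least 10 counts in every library, fitted on their own with the other genes that met this condition, 12 were up-regulated against 8.49% of 13882 genes, with a median log2 fold change of 0.89. Up-regulation was more frequent at low counts over the whole table too. It was called for 8 of the 10 collagen genes with a mean under 50 normalised counts (29.4% of all genes in that range), for 8 of 13 with a mean between 50 and 500 (16.5%) and for 3 of 10 with a mean of at least 500 (1.44%), the last being COL1A1, COL5A1 and COL6A2.

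**Figure D1:**
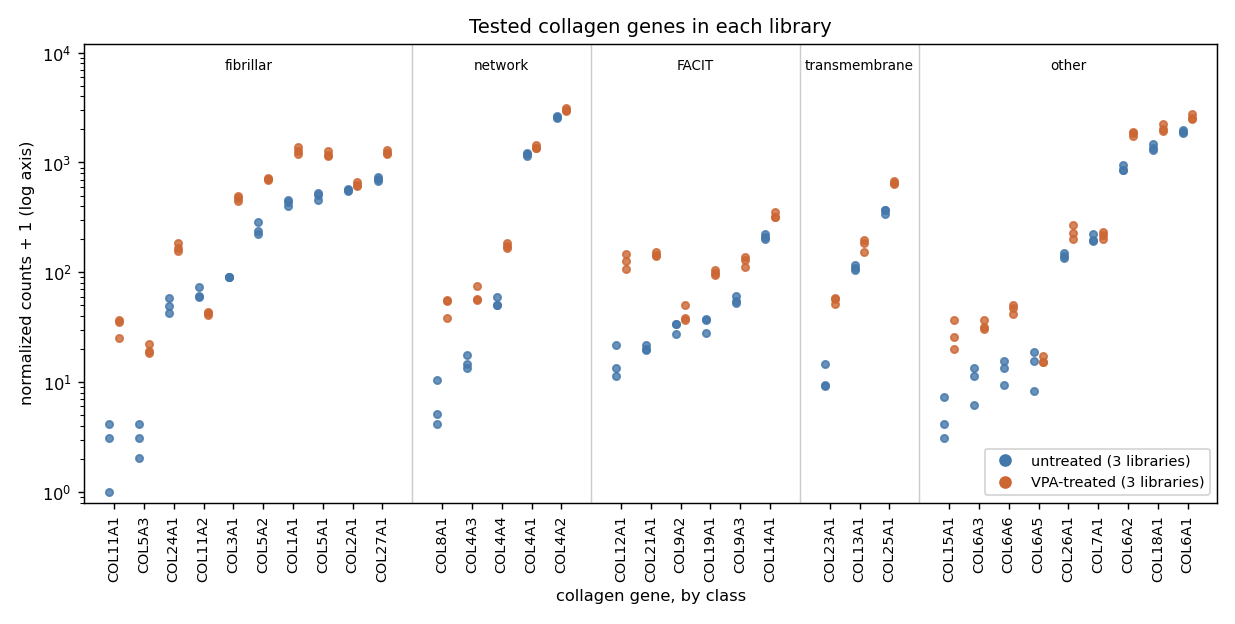
Normalised counts plus 1 (vertical log axis) of the 33 tested collagen genes in each library, grouped by class along the horizontal axis and ordered within a class by the untreated mean. Blue points are the 3 untreated and orange points the 3 VPA-treated libraries. The orange points stand clear above the blue ones for 30 genes, overlap them for COL6A5 and COL7A1, and lie below them for COL11A2.

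Among the fibrillar collagens 7 of 10 tested genes were up-regulated, against 12.0% of all genes tested, and the median of the class was 1.54 on the log2 scale. COL5A3 and COL11A1, among the 7, were tested because of their counts after VPA. COL1A1 codes for the main chain of type I collagen, the most abundant collagen of bone and skin. Normalised counts of COL1A1 were 456, 439 and 402 in untreated cells against 1375, 1280.0 and 1205 in treated cells (log2 fold change 1.57, SE 0.063). Its usual partner chain, COL1A2, was hardly detected, with raw counts of 0 in each untreated library and of 1, 0 and 1 in the VPA-treated libraries. Per kilobase of transcript, COL1A1 had at least 356-fold more counts than COL1A2 in untreated cells, with 3 counts over the group put in place of 0. In VPA-treated cells it had 1726 times as many, between 478 and 14260.3 from counting error alone (exact binomial, 95%). The untreated value is a bound and the VPA value an estimate, so together they do not show a change in the ratio. The partner thus had at most 1 raw count in any library while COL1A1 rose.

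COL3A1 codes for type III collagen, which forms the thin fibrils of skin and vessel walls. Untreated libraries gave 90.0, 89.9 and 89.1 normalised counts of COL3A1, against 493, 443 and 478 after VPA (log2 fold change 2.39, SE 0.089). The untreated libraries lay within 1 normalised count of each other, and this was the collagen gene with the smallest p of all. COL5A1 and COL5A2 code for the chains of type V collagen, which starts fibrils and sets their width. COL5A1 went from 505, 523 and 456 to 1277, 1141 and 1164 normalised counts over the 3 libraries of each group (log2 fold change 1.27, SE 0.062). Without VPA COL5A2 had 236, 223 and 283 normalised counts, compared with 714, 713 and 688 after treatment (log2 fold change 1.51, SE 0.075). The groups did not overlap for either gene.

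COL5A3 and COL11A1, 2 further chains of the types V and XI, were close to the limit of detection without VPA. COL5A3 had 2.07, 1.05 and 3.15 normalised counts without VPA and 18.2, 17.3 and 21.0 with VPA (log2 fold change 3.10, SE 0.43). For COL11A1, which is best known from cartilage, the untreated libraries had 0, 3 and 2 raw counts and the VPA-treated libraries 37, 25 and 36. Its log2 fold change of 4.08 (SE 0.45) was the largest of all collagen genes, with a wide error because only 5 reads were counted in untreated cells. It was 3.16 with a prior count of 2 and 4.75 without untreated replicate 2, and that of COL5A3 was 2.35 with a prior count of 2. From the counting error alone (exact binomial, 95%), the ratio of its counts, adjusted for depth, was 19.7, between 8.17 and 62.1, and that of COL5A3 was 9.90, between 4.29 and 28.1. Since both genes went from almost no counts to well above the filter, the 250 bases before their annotated starts are shown here, from RefSeq on GRCh38.p14 and in the direction of the gene. Capitals mark GC boxes (GGGCGG or CCGCCC) and CCAAT boxes (CCAAT or ATTGG).
COL11A1, minus strand of chr1:103108523-103108772: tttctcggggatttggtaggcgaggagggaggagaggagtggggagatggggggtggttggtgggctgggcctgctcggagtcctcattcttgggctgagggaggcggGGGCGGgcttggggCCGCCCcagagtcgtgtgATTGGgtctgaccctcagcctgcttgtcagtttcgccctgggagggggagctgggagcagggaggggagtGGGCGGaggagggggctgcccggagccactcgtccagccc
COL5A3, minus strand of chr19:10010505-10010754: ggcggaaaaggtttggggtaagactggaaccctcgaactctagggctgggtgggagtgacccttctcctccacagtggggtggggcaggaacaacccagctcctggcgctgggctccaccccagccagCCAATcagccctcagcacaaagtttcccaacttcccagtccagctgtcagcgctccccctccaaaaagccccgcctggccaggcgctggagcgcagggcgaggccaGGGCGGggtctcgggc
The COL11A1 stretch holds 3 GC boxes and 1 CCAAT box, and the COL5A3 stretch 1 of each.

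COL11A2, the partner of COL11A1 in type XI collagen, moved the other way. Normalised counts of COL11A2 were 72.4, 59.6 and 58.7 in untreated cells against 42.1, 41.4 and 40.2 in treated cells (log2 fold change -0.62, SE 0.16). Every VPA-treated library was below every untreated library, and the adjusted p of the difference was 0.00177 in edgeR. The count tables also hold 6 rows with this symbol and a running number, COL11A2_1 to COL11A2_6, that are at 0 in every library. If these are near-identical copies of the gene, reads that align to several of them were not counted, and the COL11A2 count is uncertain for that reason. COL24A1, a fibrillar collagen described in developing bone and cornea, was up-regulated. Untreated libraries gave 56.9, 48.1 and 42.0 normalised counts of COL24A1, against 154, 166 and 183 after VPA (log2 fold change 1.77, SE 0.13).

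Of the fibrillar genes that were higher, COL27A1 and COL2A1 changed least. COL27A1, a collagen of cartilage and developing tissues, had the most counts of its class over both groups, although COL1A1 had more in VPA-treated cells (means of 1287 against 1238 normalised counts). COL27A1 went from 706, 683 and 738 to 1298, 1191 and 1225 normalised counts over the 3 libraries of each group (log2 fold change 0.80, SE 0.054). COL2A1, the main collagen of cartilage, was close to level. Without VPA COL2A1 had 566, 570.0 and 545 normalised counts, compared with 670.2, 610.2 and 621 after treatment (log2 fold change 0.18, SE 0.059). Its adjusted p was 0.0127 in edgeR but 0.120 in DESeq2, and without VPA replicate 1 or untreated replicate 3 it was 0.0748 and 0.0553, so that this difference of 1.13-fold did not hold under every alternative.

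**Figure D2:**
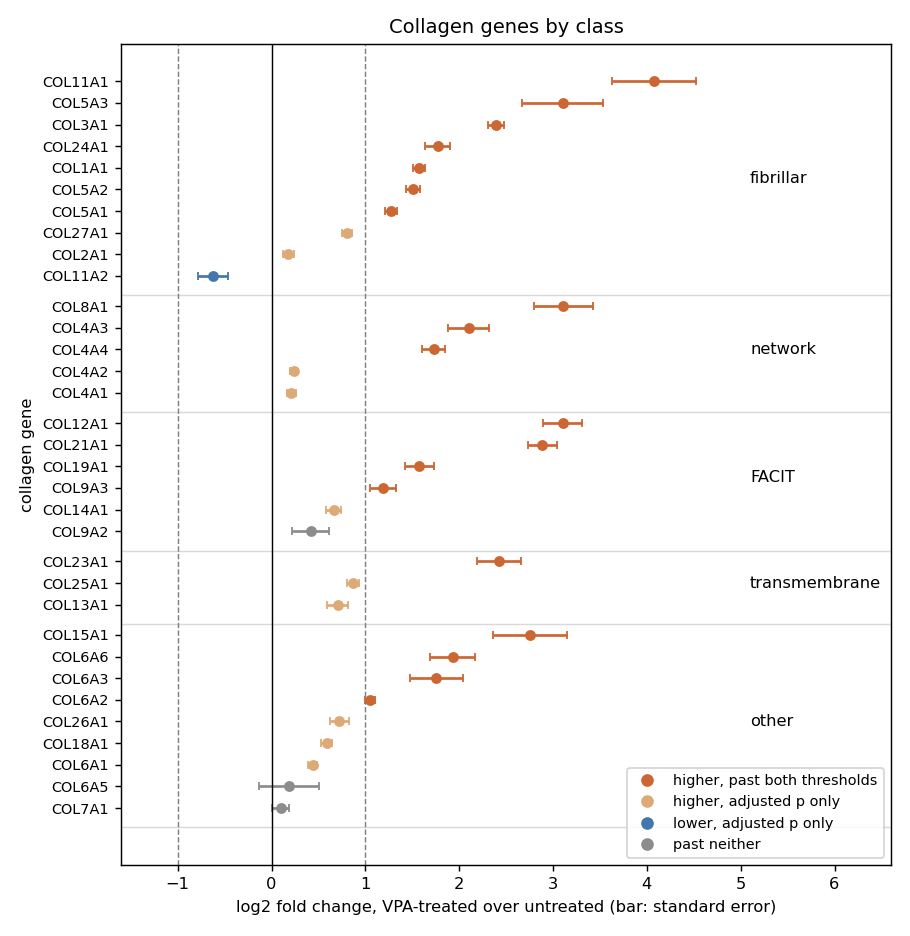
Log2 fold change of each tested collagen gene in VPA-treated against untreated cells (horizontal axis), with bars of 1 standard error, by class. Dashed lines mark the fold change threshold of 1 in either direction and colours the call. Values run from -0.62 for COL11A2 to 4.08 for COL11A1, and each class has at least 1 gene past both thresholds. In the transmembrane class that gene is COL23A1 alone, which was tested because of its counts after VPA.

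Of the 9 network-forming genes 5 were tested, all 5 were higher and 3 were up-regulated (32.9% and 12.0% of all genes tested). COL8A1, among the 3, was tested because of its counts after VPA. Type IV collagen of basement membranes has chains in pairs of genes that lie head to head and are transcribed away from each other. COL4A1 and COL4A2, on chromosome 13, code for the chains found in nearly all basement membranes, and were the pair with the most counts. COL4A2 had 2573, 2631 and 2544 normalised counts without VPA and 3137, 3020.1 and 2965 with VPA (log2 fold change 0.24, SE 0.041). Normalised counts of COL4A1 were 1196, 1223 and 1152 in untreated cells against 1435, 1350.3 and 1341 in treated cells (log2 fold change 0.21, SE 0.048). Both differences were small but larger than the spread between libraries, with an adjusted p of 3.41e-05 for COL4A2 and of 0.000716 for COL4A1 in edgeR.

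COL4A3 and COL4A4, on chromosome 2, code for chains of the specialised basement membranes of the kidney filter, lung and inner ear, and had far fewer counts. Untreated libraries gave 16.6, 12.5 and 13.6 normalised counts of COL4A3, against 73.7, 55.8 and 55.5 after VPA (log2 fold change 2.10, SE 0.22). COL4A4 went from 49.7, 49.2 and 58.7 to 183, 166 and 173 normalised counts over the 3 libraries of each group (log2 fold change 1.73, SE 0.12). The groups were well apart for both genes. COL4A3 overlaps the RNA gene MFF-DT on the opposite strand, which had 108 raw counts over the 6 libraries against 234 for COL4A3. The stretches between the annotated starts of the genes of each pair are short, 126 and 135 bases in RefSeq on GRCh38.p14, and are shown because each separates the outermost starts of a pair of genes that were both higher after VPA. The start behind the COL4A4 promoter window counted further on lies 283 bases inside the gene, which leaves 418 bases to the start of COL4A3. They are written along the plus strand, with GC boxes and CCAAT boxes in capitals.
Between COL4A1 and COL4A2, chr13:110307158-110307283: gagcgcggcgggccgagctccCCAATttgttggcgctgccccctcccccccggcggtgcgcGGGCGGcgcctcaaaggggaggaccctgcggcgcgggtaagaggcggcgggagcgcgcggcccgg
Between COL4A4 and COL4A3, chr2:227164489-227164623: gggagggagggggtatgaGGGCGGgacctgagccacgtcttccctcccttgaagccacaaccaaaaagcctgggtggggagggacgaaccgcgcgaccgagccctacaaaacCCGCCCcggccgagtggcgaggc
The first holds 1 GC box and 1 CCAAT box in 126 bases with 80.2% G and C, and the second holds 2 GC boxes and no CCAAT box in 135 bases with 68.1% G and C. Exons of GENCODE 44 transcripts cover 26 bases of the first stretch, and in GENCODE 44 COL4A1 and COL4A2 overlap on opposite strands. How reads of this overlap were counted is not known.

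COL8A1 codes for a short-chain collagen of hexagonal lattices in cornea and vessel walls, and was the network gene with the largest change. Without VPA COL8A1 had 4.14, 3.14 and 9.44 normalised counts, compared with 55.5, 53.9 and 37.3 after treatment (log2 fold change 3.11, SE 0.32). Without untreated replicate 3, which had the most counts of its group, the log2 fold change was 3.70. Of the others, COL8A2 had 8 raw counts over the 6 libraries and COL10A1, the collagen of growth plate cartilage, had 0. COL4A5 and COL4A6, the remaining pair of type IV genes, are on chromosome X and had 0 counts, but so did all 1118 genes of chromosome X that were matched by symbol, so these rows do not show whether they are expressed.

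FACIT genes were up-regulated in 4 of the 6 cases tested, against 12.0% of all genes tested, and their median log2 fold change was 1.38. COL12A1 and COL21A1 stood out within the class. COL12A1 codes for a fibril-bridging collagen of tendon and other tissues under load. COL12A1 had 12.4, 20.9 and 10.5 normalised counts without VPA and 106, 126 and 147 with VPA (log2 fold change 3.10, SE 0.21). COL21A1 belongs to the same family and has been described in vessel walls. Normalised counts of COL21A1 were 18.6, 20.9 and 18.9 in untreated cells against 153, 142 and 139 in treated cells (log2 fold change 2.89, SE 0.16). For both genes the lowest VPA-treated library was several times the highest untreated library.

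COL19A1, a FACIT of basement membrane zones, was up-regulated as well. Untreated libraries gave 36.2, 27.2 and 35.7 normalised counts of COL19A1, against 93.8, 104 and 98.5 after VPA (log2 fold change 1.58, SE 0.15). It overlaps LMBRD1 on the opposite strand. Type IX collagen, which coats the fibrils of cartilage, has chains from COL9A1, COL9A2 and COL9A3. COL9A3 went from 60.0, 51.2 and 53.5 to 128, 137 and 111 normalised counts over the 3 libraries of each group (log2 fold change 1.19, SE 0.13). COL9A3 overlaps TCFL5 on the opposite strand, a gene with 5933 raw counts over the 6 libraries. Without VPA COL9A2 had 33.1, 26.1 and 32.5 normalised counts, compared with 49.8, 35.6 and 37.3 after treatment (log2 fold change 0.42, SE 0.20). The COL9A2 groups did not overlap, but with an adjusted p of 0.0738 in edgeR the difference did not pass, and it did pass when libraries were scaled by their totals (0.0236) or by the upper quartile (0.0408).

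COL14A1, which regulates fibril growth in tendon and skin, had the most counts of the FACITs and was higher. COL14A1 had 209, 199 and 222 normalised counts without VPA and 319.8, 320.5 and 357 with VPA (log2 fold change 0.66, SE 0.082). Its groups were well apart, at a fold change of 1.58. The remaining FACIT genes had too few counts to be tested. Raw counts over the 6 libraries came to 24 for COL9A1, 47 for COL16A1, 7 for COL20A1 and 1 for COL22A1.

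Each of the 3 transmembrane collagens that were tested was higher in VPA-treated cells, and COL23A1 was up-regulated (32.9% and 12.0% of all genes tested). COL23A1 was tested because of its counts after VPA. COL23A1 is a membrane collagen that is shed from the cell surface. Normalised counts of COL23A1 were 8.28, 13.6 and 8.39 in untreated cells against 57.4, 55.8 and 50.7 in treated cells (log2 fold change 2.42, SE 0.23). COL25A1, expressed by neurons and by developing muscle, had the most counts of the class. Untreated libraries gave 365, 367 and 342 normalised counts of COL25A1, against 646, 639 and 672 after VPA (log2 fold change 0.87, SE 0.062). COL13A1, a component of the neuromuscular junction, had 109 ± 6.02 normalised counts without VPA and 177 ± 23.1 with VPA (SD, n = 3 each) and a log2 fold change of 0.70 (SE 0.11). Every VPA-treated library lay above every untreated library for the 3 genes (34.8% of all genes tested did so), although COL25A1 and COL13A1 stayed under the fold change threshold. COL17A1, the collagen of epidermal hemidesmosomes, was not tested and its 13 raw counts were uneven, with 10 of them in VPA replicate 1.

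The beaded filaments of type VI collagen surround cells in most connective tissues, and its genes responded unequally. COL6A1 had the most counts of the remaining types. COL6A1 went from 1958, 1900.3 and 1868 to 2748, 2463 and 2544 normalised counts over the 3 libraries of each group (log2 fold change 0.44, SE 0.046). Without VPA COL6A2 had 944, 849 and 847 normalised counts, compared with 1893, 1733 and 1854 after treatment (log2 fold change 1.05, SE 0.053). COL6A2 lies next to COL6A1 on chromosome 21 in the same direction, and was up-regulated where COL6A1 was higher by 1.35-fold.

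COL6A3, the long chain that completes the usual type VI trimer, had few counts. COL6A3 had 5.17, 12.5 and 10.5 normalised counts without VPA and 35.4, 30.8 and 29.7 with VPA (log2 fold change 1.75, SE 0.28). Normalised counts of COL6A6 were 12.4, 14.6 and 8.39 in untreated cells against 46.0, 40.4 and 49.7 in treated cells (log2 fold change 1.93, SE 0.24). COL6A6 codes for a chain that can take the place of COL6A3 and was up-regulated too. Its neighbour on chromosome 3, COL6A5, codes for a chain of the same kind and did not change beyond the spread. Untreated libraries gave 14.5, 7.32 and 17.8 normalised counts of COL6A5, against 14.4, 16.4 and 14.3 after VPA (log2 fold change 0.18, SE 0.32). The untreated and VPA-treated libraries overlapped for COL6A5 (adjusted p = 0.635, edgeR), and its log2 fold change was -0.11 without untreated replicate 2.

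Multiplexins are basement membrane collagens that carry long sugar chains. COL15A1 was barely counted without VPA. COL15A1 went from 2.07, 3.14 and 6.29 to 19.1, 35.6 and 24.9 normalised counts over the 3 libraries of each group (log2 fold change 2.75, SE 0.40). COL18A1, whose end fragment is endostatin, was higher at a much greater level. It had 1373 ± 97.3 normalised counts without VPA and 2068 ± 174 with VPA (SD, n = 3 each) and a log2 fold change of 0.59 (SE 0.060). It overlaps SLC19A1 on the opposite strand, with 11349 raw counts against 10422 for COL18A1. Since the strand setting of the counting is not given in the sources used here, how reads of the overlap were counted is not known.

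COL26A1, a small secreted collagen first described in testis and ovary, had 140.5 ± 6.68 normalised counts without VPA and 232 ± 32.2 with VPA (SD, n = 3 each) and a log2 fold change of 0.72 (SE 0.11). COL7A1 forms the anchoring fibrils under the epidermis. It had 203 ± 15.6 normalised counts without VPA and 217 ± 14.7 with VPA (SD, n = 3 each), and its groups overlapped, with an adjusted p of 0.372 in edgeR and of 0.0365 with scaling by library totals. COL28A1, a collagen of peripheral nerve, had 20 raw counts over the 6 libraries and was not tested. When edgeR was run with no filter on low counts, COL17A1 was the 1 gene past the threshold among the 11 not tested (adjusted p = 0.0159, edgeR without a filter), and in DESeq2 its adjusted p was 0.0966.

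The share of all counts on genes that fell on collagen genes compares the groups relative to library totals in place of TMM. Collagen counts made up 0.0626%, 0.0603% and 0.0592% of the counts without VPA and 0.113%, 0.104% and 0.107% with VPA, an increase of 1.78-fold, while the sum of their TMM-normalised counts was 1.62-fold higher with VPA. The groups did not overlap (p = 0.1 in a two-sided exact permutation test, which is as low as 3 against 3 libraries can reach). By class the shares with VPA were 2.39 times those without for fibrillar, 2.61 times for FACIT, 2.04 times for transmembrane, 1.34 times for network and 1.70 times for other collagens. The TMM-normalised sums of the classes gave 2.18, 2.38, 1.86, 1.22 and 1.55 times in the same order.

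The make-up of collagen RNA shifted as well. COL4A2, COL6A1, COL18A1 and COL4A1, the genes with the most counts in untreated cells, had log2 fold changes between 0.21 and 0.59, under the collagen median, and together held 59.3% of the collagen counts in untreated cells and 46.9% in VPA-treated cells. Fibrillar genes went from 22.3% to 30.0% of the collagen counts and network genes from 32.3% to 24.4%. FACIT genes went from 3.13% to 4.59% and transmembrane genes from 4.01% to 4.60%. Scaled to the length of the canonical transcript and the depth of the library (counts per kilobase per 1000000 counts), COL6A1 had the highest level in both groups, 24.3 in untreated and 32.8 in VPA-treated cells. COL4A2 was second in untreated cells, at 21.4 against 13.6 for both COL6A2 and COL18A1, whereas in VPA-treated cells COL6A2 came second at 28.3 and COL4A2 followed at 25.2.

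**Figure D3:**
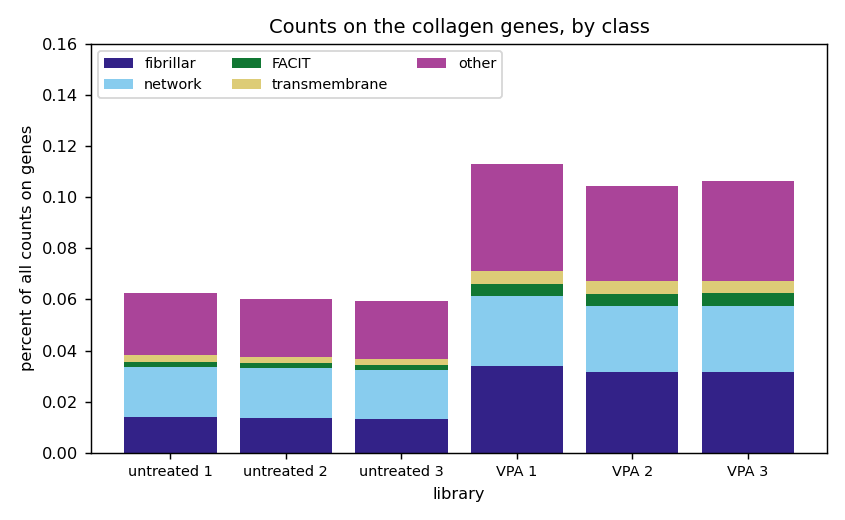
Percent of all counts on genes (vertical axis) that fell on collagen genes in each of the 6 libraries (horizontal axis), stacked by class. The untreated libraries reach 0.0592% to 0.0626% and the VPA-treated libraries 0.104% to 0.113%, with the fibrillar class at the base growing more than the network class above it.

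Chains that assemble together, or whose genes are neighbours, were compared as the log2 ratio of their counts within a library, which no scaling between libraries can alter. Of 11 such pairs 8 had enough counts, a mean of at least 10 over the 6 libraries for both genes. COL11A1 and COL6A3 reached that mean only through their VPA-treated libraries. For 5 of the 8 pairs the groups did not overlap, among them the pairs with COL11A1 and COL6A3. Among all single genes tested, every VPA-treated library lay above every untreated library for 34.8% and below for 31.0%. The share over ratios of all genes was not worked out. With 3 libraries against 3 the exact two-sided permutation p could not go below 0.1, so no pair could pass 0.05. These 5 pairs reached 0.1, which became 0.16 after Benjamini-Hochberg adjustment over the 8 pairs.

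The ratios of the head-to-head pairs overlapped between the groups. COL4A2 had 2.15, 2.15 and 2.21 times the counts of COL4A1 without VPA and 2.19, 2.24 and 2.21 times with VPA. The mean log2 ratio moved by 0.027 (exact permutation p = 0.2). COL4A4 had 3.0, 3.92 and 4.31 times the counts of COL4A3 without VPA and 2.48, 2.98 and 3.12 times with VPA. The chains of type V, COL5A2 over COL5A1, likewise overlapped, with ratios of 0.467, 0.426 and 0.621 without VPA and of 0.559, 0.625 and 0.591 with VPA.

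For the other 5 pairs the groups did not overlap, but none could pass 0.05. Non-overlap was also common among single genes (34.8% above and 31.0% below). The COL6A2 to COL6A1 ratio of counts went from 0.482, 0.447 and 0.454 to 0.689, 0.704 and 0.729. COL6A3 rose against COL6A1 as well, by 1.35 on the log2 scale. COL9A2 over COL9A3 fell by 0.78 and COL3A1 over its neighbour COL5A2 rose by 0.87. The largest shift was in type XI, where COL11A2 had 70, 57 and 56 raw counts against 0, 3 and 2 of COL11A1 without VPA, and 44, 43 and 42 against 37, 25 and 36 with VPA. The genes of this pair thus went from unequal to similar counts, a change in log2 ratio of -4.81 with 0.5 added to each count and of -2.96 with 5 added. How similar they are is uncertain, since reads of COL11A2 may have been lost to its numbered rows.

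**Figure D4:**
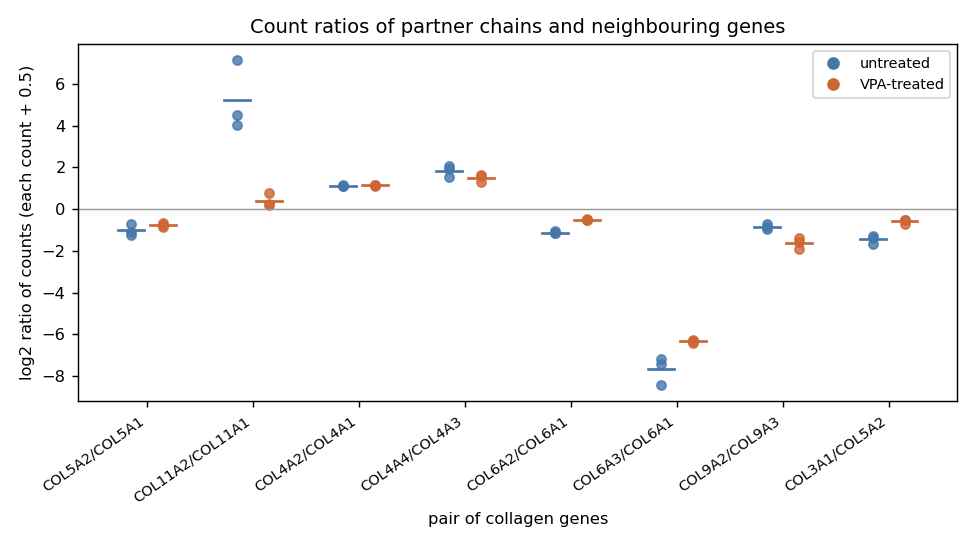
Log2 ratio of the counts of 2 collagen genes in each library (vertical axis, with 0.5 added to each count) for the 8 pairs compared (horizontal axis). Blue and orange points are the untreated and VPA-treated libraries and lines their means. The ratios of COL4A2 to COL4A1, COL4A4 to COL4A3 and COL5A2 to COL5A1 overlap between the groups, and the other 5 do not.

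Promoter windows of 300 bases (250 before and 50 after the start) were found in the RefSeq table for 32 of the 44 genes, 24 of them tested. In 6 of the 32 the start of the window lay inside the annotated gene. Motifs were searched on both strands as GGGCGG for the GC box, CCAAT for the CCAAT box and TATAAA for the TATA box. A GC box was present in 9 of the 14 up-regulated genes with a window and in 6 of the 10 tested genes that were not up-regulated, against 45.0% of 35116 windows in the whole table. A CCAAT box was present in 2 of the 14 and 3 of the 10, against 34.6%, and a TATA box in 2 of the 14 and 2 of the 10, against 11.5%. Median G and C content was 66.8% in the up-regulated genes, 67.5% in the others and 58.7% over all windows. These matches describe letters in the window only.

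The genes that act on collagen were counted from 7 lists with 66 genes, of which 53 were tested. There were 16 up-regulated and 0 down-regulated genes (12.0% and 0.503% of all genes tested), 32 were higher and 8 lower (32.9% and 30.0%), and the median log2 fold change was 0.35. The same shares over all genes apply to each list below. The filter bears on these counts too, since P4HA3, ADAMTS14, DCN and ITGA11 had at least 10 counts in each VPA-treated library but not in each untreated library, and all 4 were called up-regulated. Of the 49 with at least 10 counts in every library, fitted with the other genes that met this condition, 12 were up-regulated, against 8.49% of all genes in that fit. Of 15 genes that hydroxylate or glycosylate the chains 7 were higher and 5 lower, with a median of -0.029. P4HA3, a catalytic subunit of prolyl 4-hydroxylase, and P3H2, a prolyl 3-hydroxylase, were up-regulated with log2 fold changes of 1.27 (SE 0.29) and 1.26 (SE 0.16). P4HB, the other subunit and the gene of this list with the most counts, had 14512 ± 351 normalised counts without VPA and 12444 ± 345 with VPA (SD, n = 3 each), and its log2 fold change of -0.22 (SE 0.041) had an adjusted p that went from 7.20e-05 to 0.0540 with scaling by library totals.

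Of 9 genes of folding and secretion 2 were higher and 1 lower. SERPINH1, the collagen-specific chaperone of the endoplasmic reticulum, was named after its values were seen. Without VPA SERPINH1 had 2064, 1975 and 2039.9 normalised counts, compared with 1171, 1139 and 1169.9 after treatment (log2 fold change -0.80, SE 0.044). It was therefore lower in every VPA-treated library while most collagen genes were higher, and remained past the adjusted p under each scaling tried. CREB3L1, a membrane-bound transcription factor known to switch on collagen genes in bone, was up-regulated. CREB3L1 had 46.5, 46.0 and 54.5 normalised counts without VPA and 229.8, 227 and 205 with VPA (log2 fold change 2.17, SE 0.12). HSPA5, a general chaperone with the most counts of this list, had a log2 fold change of 0.20 (SE 0.048).

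Of 8 tested genes of propeptide cleavage 5 were up-regulated, namely ADAMTS14 (3.54, SE 0.42), TLL2 (1.94, SE 0.14), ADAMTS2 (1.52, SE 0.082) and TLL1 (1.53, SE 0.17), which code for proteinases, and PCOLCE (1.04, SE 0.10), which codes for an enhancer of propeptide cleavage (log2 fold changes). The value for ADAMTS14, which had 3, 2 and 1 raw counts without VPA, was 2.75 with a prior count of 2. ADAMTS3, the proteinase with the most counts of this list, was higher, with a log2 fold change of 0.29 (SE 0.066), and PCOLCE2, a relative of PCOLCE, was lower, with 463 ± 25.8 normalised counts without VPA and 337 ± 22.0 with VPA (SD, n = 3 each). All 5 lysyl oxidases were higher and 3 were past both thresholds, but LOXL3 and LOXL4 did not pass in DESeq2 (adjusted p of 0.111 and 0.113), nor LOXL3 without untreated replicate 3 (0.0578, edgeR) or LOXL4 without VPA replicate 3 (0.0537, edgeR). LOXL1 had a log2 fold change of 1.96 (SE 0.14), while LOX and LOXL2, at 1.01 (SE 0.099) and 1.03 (SE 0.081), were at the threshold itself and fell under it in some alternatives (0.86 for LOX without untreated replicate 2, 0.98 for LOXL2 without untreated replicate 1).

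Of the proteins that sit on collagen fibrils 5 of 10 were tested and 3 were up-regulated. DCN, a small proteoglycan of fibrils, had raw counts of 0, 0 and 3 without VPA and of 40, 47 and 46 with VPA. The ratio of its counts, adjusted for depth, was 44.6, between 14.9 and 219 from counting error alone. All of its untreated counts were in replicate 3, without which the fitted log2 fold change of DCN went from 5.19 to 8.43, a value that has no untreated counts behind it and is no bound. Normalised counts of LUM were 25.9, 25.1 and 25.2 in untreated cells against 245, 244 and 239 in treated cells (log2 fold change 3.25, SE 0.13). LUM codes for lumican, a relative of decorin. FN1, or fibronectin, on which collagen fibrils are laid down, had the most counts of the list, with 1997 ± 87.8 normalised counts without VPA and 4303 ± 80.1 with VPA (SD, n = 3 each) and a log2 fold change of 1.11 (SE 0.043).

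Among collagen receptors 6 of 8 tested genes were higher, and ITGA11, an integrin subunit for fibrillar collagen, was up-regulated with a log2 fold change of 2.20 (SE 0.26). Its partner ITGB1, with the most counts of the list, had a log2 fold change of -0.14 (SE 0.047) that did not pass with scaling by library totals (adjusted p = 0.867, edgeR). Of 7 collagen-degrading enzymes 3 were tested and MMP2, or gelatinase A, was up-regulated. Untreated libraries gave 56.9, 51.2 and 74.5 normalised counts of MMP2, against 567, 545 and 583 after VPA (log2 fold change 3.21, SE 0.10). MMP1 and MMP8 had 0 counts.

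**Figure D5:**
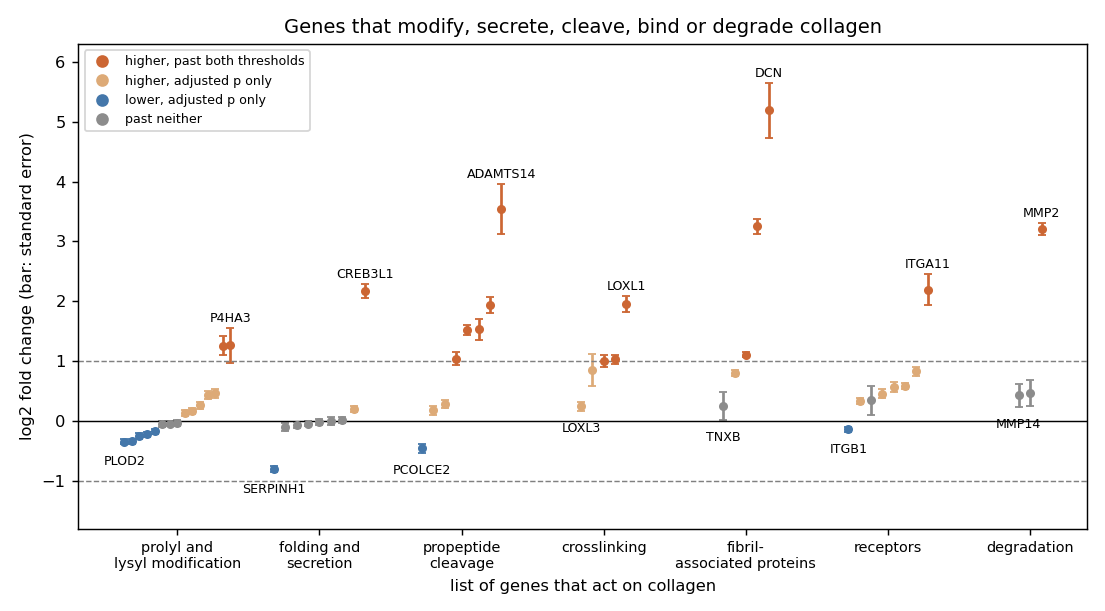
Log2 fold change (vertical axis, bars of 1 standard error) of the 53 tested genes that act on collagen, by list along the horizontal axis, with the lowest and highest gene of each list named and dashed lines at the fold change threshold. Genes of modification and folding lie on both sides of 0, from -0.80 for SERPINH1 to 2.17 for CREB3L1, while all 5 crosslinking genes lie above 0.

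Markers of the labelled line and of collagen-rich cell types were counted beside these genes. All 8 markers chosen for HEK293 cells had counts in every library. After VPA 3 of them were higher and 5 lower, against 32.9% and 30.0% of all genes tested. The same shares apply to the other lists. Of 9 fibroblast markers 6 were higher, and their summed level was 1581 to 1592 normalised counts in the untreated and 2746 to 2831 in the VPA-treated libraries, mostly from FBLN1. Without FBLN1 the sum was 201 to 213 and 592 to 609. PDGFRA, DCN, LUM and POSTN were up-regulated, with log2 fold changes of 1.02, 5.19, 3.25 and 3.74. PDGFRB passed neither threshold (-0.022), FAP was at 0 and THY1 had 2 raw counts in all 6 libraries. Of 7 chondrocyte markers 4 were higher, and their sum went from between 256 and 337 to between 506 and 573. ACAN, MATN3 and COMP were up-regulated, with log2 fold changes of 3.33, 1.73 and 1.90. SOX9 passed neither threshold (-0.12) and CNMD was at 0. Of 6 endothelial markers KDR and VWF were tested and both were up-regulated, against 12.0% of all genes tested. The endothelial markers summed to between 10.3 and 20.9 without VPA and to between 138 and 171 with VPA, mostly from KDR. VWF had 0, 3 and 0 raw counts without VPA and 13, 20 and 17 with VPA, CDH5 had 0 in each untreated library and 3, 3 and 1 with VPA, ERG was at 0 and PECAM1 had 5 in all. PTPRC, the defining leukocyte marker, had 12 raw counts, all in VPA-treated libraries. VWF, DCN and POSTN had at least 10 counts in each VPA-treated library but not in each untreated library, and all 3 were called up-regulated. Of the 19 markers with at least 10 counts in every library 8 were up-regulated, against 8.49% in the fit of such genes. DCN and LUM belong to both the fibroblast and the fibril list, and the part of other cell types in the collagen values was not tested.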

How the data were processed

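RNA of HEK293T cells, 3 untreated and 3 VPA-treated libraries (strand-specific mRNA), was sequenced. Reads were cleaned (SOAPnuke), aligned to hg38 (STAR, 2.7.10b in the submitters' processing notes) and assigned to genes (HTSeq, 2.0.1 in the same notes) by the authors, who deposited the raw counts without normalization. The gene annotation and the strand setting are not given in the sources used here. Groups were taken from the labels. The test was edgeR 4.0.16 under R 4.3.3 (TMM, filterByExpr with a count minimum of 10, a robust quasi-likelihood model of treatment alone, prior count of 0.125, Benjamini-Hochberg adjustment over 15298 genes), and the script was tested on simulated data. DESeq2 1.42.0, other scalings and filters, a prior count of 2, a replicate block and leaving out each library were the alternatives. Counts are unique alignments, so near-identical copies lose reads. Intervals cover counting error only. Lengths are of GENCODE 44 canonical transcripts and positions are from RefSeq on GRCh38.p14. Values per library were given for collagen genes past both thresholds, for the gene with the most counts of each class and for compared pairs, and others by fold change or raw count. The genes that act on collagen were named if past both thresholds, up to 4 per list by smallest p, or if they had the most counts. ADAMTS14, PCOLCE2 and SERPINH1, and the values per library of COL2A1 and COL6A5, were added after their values were seen. The collagen genes, lists and tests were chosen with earlier results of these data known.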

Additional observations from a re-analysis of the deposited data

How the results depend on the processing

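No collagen gene was down-regulated under any alternative, and between 12 and 20 were up-regulated against 19. The lowest count, 12, came from requiring at least 10 counts in every library, which left 25 collagen genes with a median log2 fold change of 0.89. Scaling by library totals, which moved the median of all genes tested to 0.14, moved that of the collagen genes to 1.40. Without each library in turn the up-regulated count stayed at 19 and the median lay between 1.19 and 1.30. Of 454 values of single collagen genes over the alternatives 447 kept their direction and call. The exceptions were COL2A1, which lost its call in 3, COL9A2 and COL7A1, which gained one in 3, and COL6A5, which turned to -0.11 without untreated replicate 2. The increase in the collagen share of counts was 0.054 percentage points with the 100 most abundant genes left out of the denominator, against 0.047 with all genes, and between 0.045 and 0.049 without each library. The COL11A2 to COL11A1 change in log2 ratio was -2.96 with 5 added to each count, and between -5.41 and -3.86 without each library. Genes that act on collagen were followed singly only for the 40 with an adjusted p under 0.05 in the main fit, edgeR. Of their 556 values 32 lost their call or moved to a weaker one. Genes without a call in the main fit were not followed singly. The up-regulated count over all genes of the lists lay between 12 and 19 against 16. The cause of these moves was not tested, beyond the fewer genes or libraries that an alternative kept.

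The labels do not say whether the replicate numbers pair the libraries, and the test treated the groups as unpaired. Deviations of same-numbered libraries correlated at 0.14, 0.021 and 0.080, and those of different-numbered libraries at -0.11 to 0.031. Correlations this weak do not settle whether the libraries were paired. With the replicate block 19 collagen genes were up-regulated, with a median of 1.27, and no collagen call changed. Depth limited the genes with few counts most, as the SE of 0.45 for COL11A1 against 0.041 for COL4A2 shows.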

Other observations

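Collagen-like helices also occur in proteins outside the collagen family, and 39 such genes were counted, from a list written after the collagen values were seen. Of these 17 were tested, 6 were up-regulated and 0 down-regulated (12.0% and 0.503% of all genes tested), and 9 were higher and 3 lower (32.9% and 30.0%), with a median log2 fold change of 0.42. C1QTNF2 and SCARA5 had at least 10 counts in each VPA-treated library but not in each untreated library, and among the 15 genes with at least 10 in every library 4 were up-regulated, against 8.49% of all genes in that fit. The up-regulated genes were C1QTNF2 with a log2 fold change of 2.49 (SE 0.37), C1QTNF1 with 2.46 (SE 0.12), CCBE1 with 1.99 (SE 0.12), SCARA5 with 1.82 (SE 0.33), C1QL4 with 1.69 (SE 0.12) and C1QL1 with 1.66 (SE 0.13), in edgeR. C1QTNF1 and C1QTNF2 code for secreted relatives of adiponectin, C1QL1 and C1QL4 for secreted relatives of complement C1q, CCBE1 for a matrix protein of lymphatic vessel growth and SCARA5 for a scavenger receptor. The complement genes C1QA, C1QB and C1QC had 0 counts in every library.

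COL6A4P1, a pseudogene row of a type VI chain that the symbol rule leaves out, had raw counts of 24, 17 and 14 in the untreated libraries and of 41, 39 and 35 in the VPA-treated libraries, a log2 fold change of 0.94 (SE 0.23, adjusted p = 0.00108, edgeR). COL6A4P2 had 36 raw counts over the 6 libraries and was not tested. The antisense rows COL18A1-AS1, COL18A1-AS2 and COL5A1-AS1 had 0 counts, and COL25A1-DT, listed beside COL25A1, had 0, 1 and 1 raw counts in the untreated and 4, 5 and 3 in the VPA-treated libraries.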
